A study of Mus musculus with 4 samples.

Results

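Brush border hydrolases are the digestive enzymes that sit on the microvilli of the intestinal surface, and 8 of their genes were followed here in sorted intestinal stem cells of the mouse. The genes were taken by name: the carbohydrate-splitting enzymes Sis, Mgam, Lct and Treh, the peptidases Anpep, Enpep and Dpp4, and the phosphatase Alpi. They are 8 of the 55487 genes in the deposited tables, and each of the 8 passed the filter on low counts that left 14165 genes to test. The large-intestinal group (LISC) held 2 libraries of Lgr5-EGFP+ cells from the stretch between cecum and rectum. The small-intestinal group (SISC) held 2 libraries of cells, from stretches near the pylorus and near the cecum, sorted as Lgr5-EGFP+ and CD24-, a gate against the surface protein CD24 that the labels do not give for LISC. Both groups came from untreated mice aged 6 to 12 weeks that carry Lgr5-EGFP-IRES-creERT2, an allele that puts a green fluorescent protein and a tamoxifen-dependent Cre recombinase under control of Lgr5, a gene of crypt stem cells. Whether separate animals gave the replicates is not in the labels. The p-values therefore speak of the spread between these 4 libraries only, and that spread may be technical.

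In the small intestine these enzymes carry out the last step of digestion. Membrane-anchored glycosidases release single sugars from disaccharides and starch fragments, aminopeptidases and dipeptidyl peptidases trim peptides to absorbable size, and alkaline phosphatase strips phosphate from nutrients and from bacterial lipopolysaccharide. Their proteins are known as products of the absorptive enterocytes that line the villi, and the large intestine, which has no villi, digests little sugar or protein with enzymes of its own. Stem cells at the crypt base are therefore not where most of these proteins are known to be made.

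Both replicate number and intestine separated the libraries. Totals of expected counts were 12795434 and 24142212 in LISC replicates 1 and 2, and 16490485 and 27227715 in SISC replicates 1 and 2. Ribosomal RNA genes took 36.6% and 0.304% of the counts in LISC replicates 1 and 2, and 31.8% and 0.246% in SISC replicates 1 and 2. Lgr5 itself was read at 147 and 89.7 CPM in LISC and at 114 and 173 CPM in SISC. CPM, the count of a gene scaled to a common library total, is here adjusted between libraries with TMM factors and is used to compare libraries. TPM, the deposited relative transcript abundance, takes gene length into account and is used to compare genes. Since the ribosomal RNA share goes with replicate number, the log2 difference of LISC over SISC is also given within each number, as a ratio of single libraries with no test. The CD24- gate is given for SISC only, so the parts of gate and intestine in any difference cannot be told apart. Cd24a, the gene of that surface protein, was at 328 and 503 CPM in LISC and at 341 and 407 CPM in SISC. These RNA levels overlap, and they do not measure the surface protein that was sorted on.

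All 8 hydrolase genes had a negative log2 difference, that is a lower level in LISC, and 52% of all genes tested did. Sucrase-isomaltase was the 1 of the 8 that passed edgeR's quasi-likelihood test at an adjusted p below 0.05, while 0.741% of all genes tested passed it as lower in LISC. None passed as higher, as 1.45% of all genes did. The other 7 did not pass, and a missed threshold does not show equal levels. Lct, Treh and Alpi did not reach the filter's level in both LISC libraries, so they were tested because of SISC, where they were higher. The counts of members and the median given here include them. In 7 of the 8, Mgam being the exception, the LISC libraries both lay below the SISC libraries by CPM, as they did for 18.4% of all genes tested, while 21.9% had both LISC libraries above. An unadjusted p below 0.05 was reached by 6 of the 8, against 4.67% of all genes tested that did so as lower in LISC and 8.73% as higher. The median log2 difference of the 8 was −2.14, against −0.02 over all genes tested, and it was −2.73 within replicate number 1 and −1.25 within replicate number 2. The genes fell into a pair with small differences, Dpp4 and Mgam, and 6 with log2 differences between −4.84 and −1.92. A log2 difference of −1.9 or less was reached by 2.80% of all genes tested. That cutoff was set from the weakest of these 6, so the share describes them and is no test. With DESeq2 in place of edgeR, 4 of the 8 passed, namely Sis, Anpep, Enpep and Alpi, where 2.81% of all genes passed as lower in LISC.

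**Figure D1:**
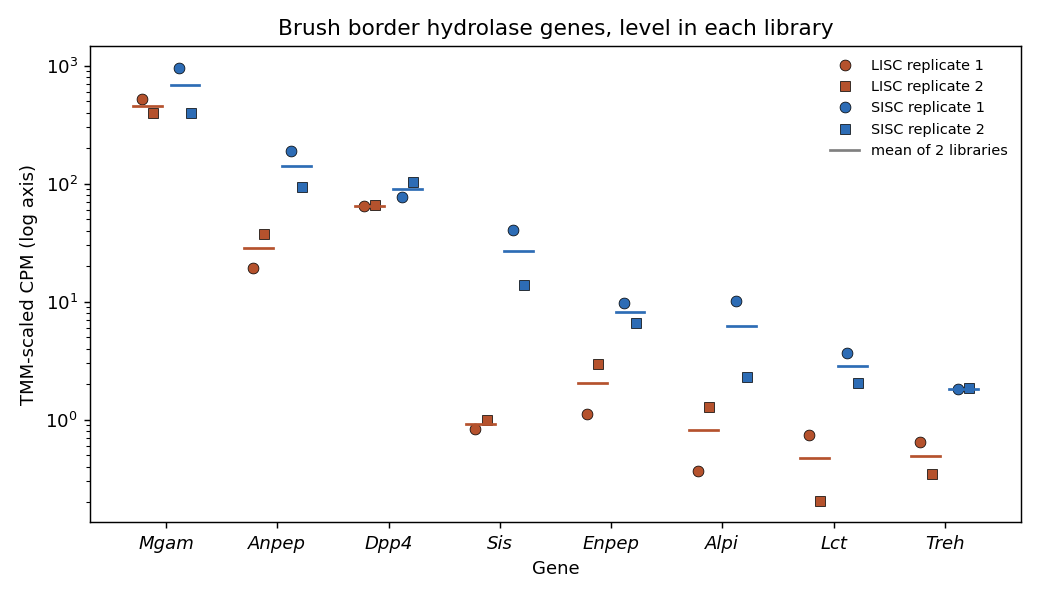
Level of each hydrolase gene in every library, as TMM-scaled CPM on a log axis, with LISC to the left of SISC for each gene, circles for replicate 1, squares for replicate 2 and a bar at the mean of the 2 libraries. Mgam spans 394 to 964 CPM and is the gene whose groups overlap, while Sis lies at 0.834 and 0.997 CPM in LISC and at 40.2 and 13.7 CPM in SISC.

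By TPM, Mgam was the highest of the 8 in all 4 libraries and Lct the lowest. In LISC the order of mean TPM was Mgam (92.4), Anpep (14.3), Dpp4 (13.1), Enpep (0.59), Alpi (0.43), Sis (0.28), Treh (0.26) and Lct (0.06). In LISC the libraries of Anpep and Dpp4 overlapped, as did those of each neighbouring pair from Enpep to Treh, so the order within those stretches is not resolved. In SISC the order was Mgam (118), Anpep (61.9), Dpp4 (17.5), Sis (7.17), Alpi (2.33), Enpep (2.03), Treh (0.94) and Lct (0.53). In SISC the neighbours Alpi and Enpep overlapped, and the libraries of the other neighbouring pairs did not. Sis thus stood at the sixth place in LISC and at the fourth place in SISC. Mgam made up 75.3% and 76.4% of the summed TPM of the 8 genes in LISC replicates 1 and 2, and 48.4% and 61.3% in SISC replicates 1 and 2.

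Sis encodes sucrase-isomaltase, which splits sucrose and the branched fragments of starch. Sis (ENSMUSG00000027790; GRCm38 chromosome 3, 72888557 to 72967863, minus strand) was read at 0.834 and 0.997 CPM in LISC replicates 1 and 2, against 40.2 and 13.7 CPM in SISC replicates 1 and 2. The LISC values rest on 9 and 29 counts, both are far below either SISC library, and the SISC libraries differ between themselves. Sis was 28.7-fold lower in LISC, a log2 difference of −4.84 ± 0.66 (SE; edgeR adjusted p = 0.0431), and of −5.59 and −3.79 within replicate numbers 1 and 2. Without SISC replicate 1 the log2 difference of Sis was −3.89, and without SISC replicate 2 it was −5.45. It passed under all 11 alternatives that kept it, with adjusted p-values up to 0.0498. Besides the DESeq2 share above, the share of all genes called lower in LISC was 0.657% with DESeq2's size factors, 0.678% with rRNA genes left out, 1.94% with no filter, 0.277% with the stricter filter, 1.22% with limma on log2(TPM + 1), 1.05% with limma on log2(TPM + 0.1) and 3.7% with a replicate block. Leaving out 1 library, it was 0.703% without LISC replicate 1, 0.544% without LISC replicate 2, 0.974% without SISC replicate 1 and 0.921% without SISC replicate 2. The log2 difference was −2.64 on the log2(TPM + 1) scale, where the pseudocount is larger than the LISC level.

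Mgam encodes maltase-glucoamylase, the close relative of sucrase-isomaltase that releases glucose from the ends of starch fragments. Mgam (ENSMUSG00000068587; chromosome 6, 40628831 to 40769123, plus strand) was read at 518 and 394 CPM in LISC replicates 1 and 2, against 964 and 398 CPM in SISC replicates 1 and 2. SISC replicate 1 stands above the other 3 libraries, and the groups overlap. The log2 difference was −0.58 ± 0.54 (SE; edgeR adjusted p = 0.87), and −0.90 and −0.02 within replicate numbers 1 and 2. It was 0.19 without SISC replicate 1, so its sign rests on that library. Mgam2-ps, the annotated pseudogene copy downstream of Mgam on the same strand, was read at 17.8 and 27.1 CPM in LISC and at 58.9 and 30.7 CPM in SISC (log2 −0.99 ± 0.42, edgeR adjusted p = 0.426).

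Lct encodes lactase, the enzyme of milk sugar digestion, which in mammals is known to be high before weaning and low after it. Lct (ENSMUSG00000026354; chromosome 1, 128284756 to 128328318, minus strand) was read at 0.741 and 0.206 CPM in LISC replicates 1 and 2, against 3.71 and 2.03 CPM in SISC replicates 1 and 2. The groups do not overlap, but the LISC values are 8 and 6 counts and the SISC values 51 and 65 counts. The log2 difference was −2.67 ± 0.90 (SE; edgeR adjusted p = 0.286), and −2.32 and −3.30 within replicate numbers 1 and 2.

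Treh encodes trehalase, which splits the disaccharide trehalose found in fungi and insects. Treh (ENSMUSG00000032098; chromosome 9, 44673233 to 44686305, plus strand) was read at 0.649 and 0.344 CPM in LISC replicates 1 and 2, against 1.82 and 1.84 CPM in SISC replicates 1 and 2. The SISC libraries nearly coincide and both LISC libraries are below them, at 7 and 10 counts. Treh's log2 difference was −1.92 ± 0.72 (SE; edgeR adjusted p = 0.348), and −1.49 and −2.42 within replicate numbers 1 and 2. By CPM, the LISC level of Lct and Treh was lower in replicate 2 than in replicate 1, unlike that of the other low genes. That order rests on 8 and 6 counts for Lct and on 7 and 10 counts for Treh. The TPM of Treh in LISC went the other way, at 0.22 and 0.30 in replicates 1 and 2.

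**Figure D2:**
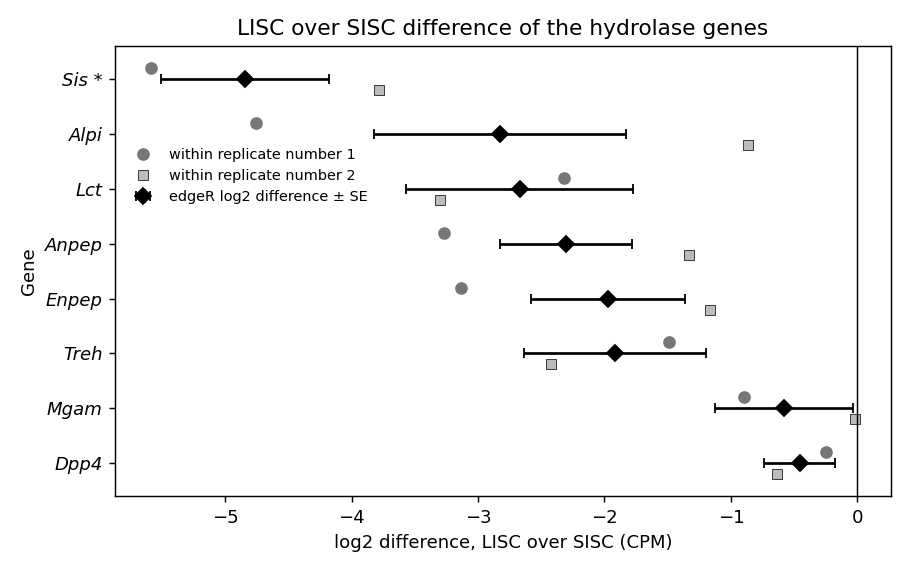
Log2 difference of LISC over SISC for each hydrolase gene, with diamonds for edgeR's estimate ± SE over all 4 libraries, circles for the ratio within replicate number 1 and squares for that within replicate number 2. The asterisk marks Sis, the gene past the adjusted p of 0.05, and every point lies below 0, Mgam within replicate number 2 at −0.02 being nearest to it.

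Among the peptidases, Anpep encodes aminopeptidase N, known on blood cells as CD13, which removes neutral residues from the amino end of peptides. Anpep (ENSMUSG00000039062; chromosome 7, 79821803 to 79861059, minus strand) was read at 19.5 and 37.3 CPM in LISC replicates 1 and 2, against 188 and 93.8 CPM in SISC replicates 1 and 2. The groups do not overlap, and the gap is widest between the replicate 1 libraries. Anpep was at 4.94-fold lower mean level in LISC and missed the threshold (log2 −2.31 ± 0.52, SE; edgeR adjusted p = 0.126), with log2 ratios of −3.27 and −1.33 within replicate numbers 1 and 2. It passed with DESeq2 (adjusted p = 0.000277) and with a replicate block in edgeR (adjusted p = 0.0395).

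Enpep encodes aminopeptidase A, which removes acidic residues and also acts on angiotensin. Enpep (ENSMUSG00000028024; chromosome 3, 129269175 to 129332720, minus strand) was read at 1.11 and 2.96 CPM in LISC replicates 1 and 2, against 9.75 and 6.62 CPM in SISC replicates 1 and 2. Both LISC libraries are below both SISC libraries. Enpep's log2 difference was −1.97 ± 0.61 (SE; edgeR adjusted p = 0.239, DESeq2 adjusted p = 0.0416), and −3.13 and −1.16 within replicate numbers 1 and 2.

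Dpp4 encodes dipeptidyl peptidase 4, known on lymphocytes as CD26, which cuts dipeptides off proline-containing peptides and inactivates the incretin hormones. Dpp4 (ENSMUSG00000035000; chromosome 2, 62330073 to 62412231, minus strand) was read at 64.5 and 66.2 CPM in LISC replicates 1 and 2, against 76.5 and 103 CPM in SISC replicates 1 and 2. The LISC libraries nearly coincide just below the lower SISC library. The log2 difference was −0.46 ± 0.28 (SE; edgeR adjusted p = 0.68), and −0.25 and −0.64 within replicate numbers 1 and 2, the smallest of the 8 over all 4 libraries. Its neighbour Gcg, upstream of it on the same strand, encodes the glucagon-like peptides that Dpp4 protein inactivates, and was read at 15.8 and 19.97 CPM in LISC and at 16.7 and 1.53 CPM in SISC.

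Alpi encodes intestinal alkaline phosphatase. Alpi (ENSMUSG00000079440; chromosome 1, 87098002 to 87101606, minus strand) was read at 0.371 and 1.27 CPM in LISC replicates 1 and 2, against 10.04 and 2.31 CPM in SISC replicates 1 and 2. The groups do not overlap, yet LISC replicate 2 and SISC replicate 2 lie close together and SISC replicate 1 is 4.34-fold above SISC replicate 2. The log2 difference was −2.83 ± 0.998 (SE; edgeR adjusted p = 0.312, DESeq2 adjusted p = 0.0461), and −4.76 and −0.86 within replicate numbers 1 and 2. Leaving out SISC replicate 1 gave −1.43, and leaving out LISC replicate 2 gave −4.01. The flanking genes are the alkaline phosphatases Alppl2 and Akp3, of which Akp3 is another intestinal form in the mouse. Alppl2 had 0 and 0 counts in LISC and 9 and 4 in SISC, and Akp3 had 0 and 0 counts in LISC and 16 and 12 in SISC. Both were below the filter and were not tested, and a count of 0 is compatible with up to 3 counts, or 0.234 and 0.124 CPM on the full totals of LISC replicates 1 and 2, for counting error only.

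The upstream windows of 4 members are shown because they set Sis and Lct, glycosidase genes whose intestinal promoters are classical targets of CDX, HNF1 and GATA factors, beside Mgam and Anpep, the members with the highest levels. Each is the 250 bases before the transcript start in RefSeq's GRCm38.p6 annotation, 5′ to 3′ on the strand of the gene, and all 8 members matched an entry. For Anpep that start lies inside the longer GENCODE span given above. Capitals mark exact matches, on either strand, to TTTATG, searched for the CDX factors. They also mark AGATAA, searched for the GATA factors. HNF1 was searched as GTTAAT and the nuclear receptor HNF4 as CAAAGT.
Sis upstream window, chr3:72967864-72968113 (minus strand): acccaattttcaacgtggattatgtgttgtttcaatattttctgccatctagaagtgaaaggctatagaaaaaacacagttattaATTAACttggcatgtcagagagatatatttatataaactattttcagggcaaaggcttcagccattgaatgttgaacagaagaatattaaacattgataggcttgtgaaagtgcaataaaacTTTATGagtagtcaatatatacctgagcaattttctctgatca
Lct upstream window, chr1:128328319-128328568 (minus strand): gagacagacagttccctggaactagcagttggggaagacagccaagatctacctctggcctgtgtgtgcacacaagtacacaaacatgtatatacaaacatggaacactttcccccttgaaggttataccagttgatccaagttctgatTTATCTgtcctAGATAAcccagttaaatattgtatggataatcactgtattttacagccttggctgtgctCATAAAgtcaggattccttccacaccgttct
Mgam upstream window, chr6:40628581-40628830 (plus strand): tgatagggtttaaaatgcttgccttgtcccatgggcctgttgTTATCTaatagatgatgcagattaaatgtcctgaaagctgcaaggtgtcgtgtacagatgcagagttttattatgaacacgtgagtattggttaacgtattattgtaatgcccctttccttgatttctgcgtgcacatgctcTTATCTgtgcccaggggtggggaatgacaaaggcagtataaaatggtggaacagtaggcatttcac
Anpep upstream window, chr7:79848211-79848460 (minus strand): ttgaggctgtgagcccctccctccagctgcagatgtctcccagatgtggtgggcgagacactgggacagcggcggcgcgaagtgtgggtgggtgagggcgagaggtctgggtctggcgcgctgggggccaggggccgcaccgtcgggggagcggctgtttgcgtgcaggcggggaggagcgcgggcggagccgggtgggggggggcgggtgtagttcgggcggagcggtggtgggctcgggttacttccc
Sis held the CDX letters 43 to 38 bases before its start and the HNF1 letters, on the other strand, 165 to 160 bases before it. Lct held the CDX letters 31 to 26 bases before its start and a pair of GATA matches 101 to 96 and 90 to 85 bases before it. Mgam held 2 GATA matches, and Anpep held none of the 4 motifs in a window of 72.8% G and C, against 31.6% in Sis. Among the others Dpp4 had a GATA match, Treh 2 HNF4 matches, Alpi 1 HNF4 match and Enpep none, and no matches in the 8 windows overlapped. Over 32851 RefSeq windows of this length, 10.8% held the CDX, 9.99% the GATA, 6.43% the HNF1 and 12.6% the HNF4 letters, and of the 8 members 2, 3, 1 and 2 held them in that order. A match is a run of letters, not a measured binding site, and its absence says nothing of a factor.

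**Figure D3:**
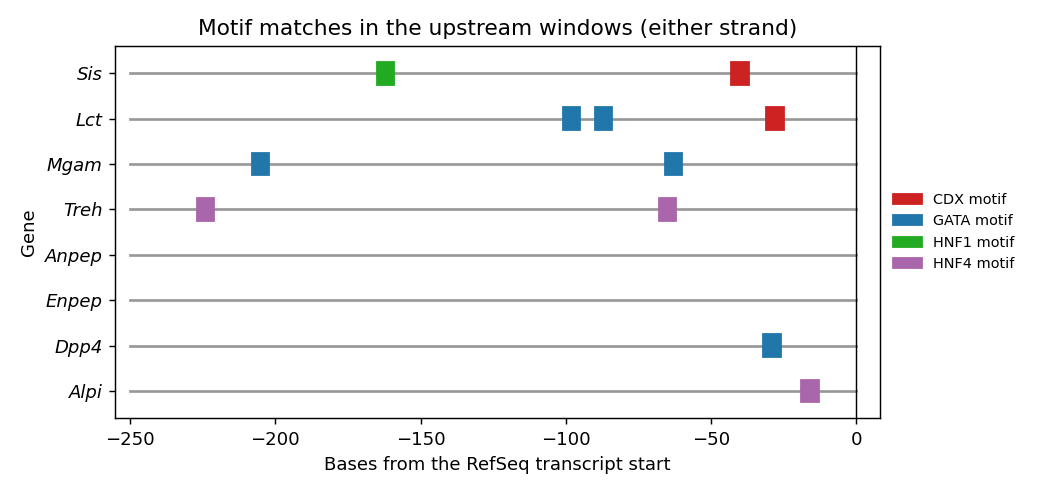
Positions of the motif matches in the upstream windows of the 8 hydrolase genes, in bases from the RefSeq transcript start at 0, with 1 row per gene and a colour per motif. Sis and Lct are the rows with a CDX match, both within 43 bases of the start, and Anpep and Enpep have none of the 4 motifs.

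The factors known from these promoters were measured in the same libraries. Of 20 such genes tested, 2 passed as lower in LISC and 1 as higher, against 0.741% and 1.45% of all genes tested. By edgeR's unadjusted p below 0.05, 4 were lower in LISC and 3 higher, against 4.67% and 8.73% of all genes tested. The median log2 difference of these factors was −0.18. Gata4, a zinc finger factor of the proximal intestine, was read at 0.0927 and 0.103 CPM in LISC, which are 1 and 3 counts, and at 132 and 88.8 CPM in SISC (edgeR adjusted p = 0.0155). Gata5 was read at 2.32 and 2.41 CPM in LISC and at 69.0 and 47.9 CPM in SISC (log2 −4.62 ± 0.32, edgeR adjusted p = 0.0167). Elf3, Hnf4a and Cdx1, the 3 most abundant that did not pass, had log2 differences of −0.89 ± 0.35, −0.94 ± 0.39 and 0.57 ± 0.29 (edgeR adjusted p = 0.384, 0.418 and 0.567). Whether any of these factors bears on the hydrolase genes was not tested.

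Counts of the 8 members were whole numbers in every library, within 0.001, and the deposited posterior SD of each was 0 reads, so none of their reads had been divided with another gene. The deposited gene length is the mean over a gene's transcripts weighted by their estimated abundance, and it moved for several members. For Mgam it was 6601 and 3915 bases in LISC replicates 1 and 2, and 8453 and 3189 bases in SISC replicates 1 and 2. Both replicate 1 libraries had the longer value, and both exceed the longest Mgam transcript in GENCODE vM21, of 6488 bases. The deposited tables list 8 Mgam transcripts, 1 of them not in vM21. For Lct the length was 6174 bases in the other 3 libraries and 3987 bases in SISC replicate 2, and for Alpi, which has 1 transcript, it was 2337 bases in all 4. The TPM of Mgam was 50.4 and 134 in LISC and 80.9 and 156 in SISC, higher in replicate 2 of each group where CPM was lower. TPM also differed by replicate number where CPM hardly did, as for Vil1 at 73.0 and 147 TPM in LISC and 88.9 and 125 TPM in SISC. The parts of gene length and of the ribosomal RNA share in the TPM of Mgam were not tested.

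Markers of other cell types were read beside the hydrolases because the levels are sums over sorted cells, in which fewer cells of a type and less RNA per cell cannot be told apart. The 7 members other than Mgam summed to 87.7 and 109 CPM in LISC and to 330 and 223 CPM in SISC. Of 10 enterocyte markers, 1 passed edgeR as lower in LISC (Apoa4, at 0 in both LISC libraries), 5 passed with DESeq2, and 6 had both LISC libraries below both SISC libraries, with sums of 683 and 810 CPM in LISC and 1084 and 1060 CPM in SISC. Of 6 colonocyte markers, 2 passed as higher in LISC, with sums of 411 and 1476 CPM in LISC and 27.6 and 29.5 CPM in SISC, where Car1 and Aqp8 were at 0. Of 6 Paneth cell markers 0 passed edgeR, 6 had an unadjusted p below 0.05, 6 passed with DESeq2 as lower in LISC, and all 6 had both LISC libraries below both SISC libraries. Their sums were 52.1 and 26.6 CPM in LISC and 8445 and 1306 CPM in SISC.

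Within SISC, 6 of the 8 hydrolase genes were higher in replicate 1 than in replicate 2, against 48.5% of all genes tested, and so were all 6 Paneth, all 6 goblet, all 6 enteroendocrine and all 5 tuft markers. The same held for 3 of 10 enterocyte, 2 of 6 colonocyte and 0 of 5 stem cell markers. Goblet markers summed to 3319 and 5574 CPM in LISC and to 2010 and 437 CPM in SISC. The enteroendocrine marker Gip passed edgeR as lower in LISC, where it was at 0. Enteroendocrine markers summed to 59.1 and 61.1 CPM in LISC and 179 and 33.3 CPM in SISC, and tuft markers to 68.1 and 108 CPM in LISC and 18.9 and 4.12 CPM in SISC. Within LISC, 5 of the 8 hydrolase genes were higher in replicate 2, near the 55.5% of all genes tested that were. The part of these cell types in the hydrolase differences was not tested.

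**Figure D4:**
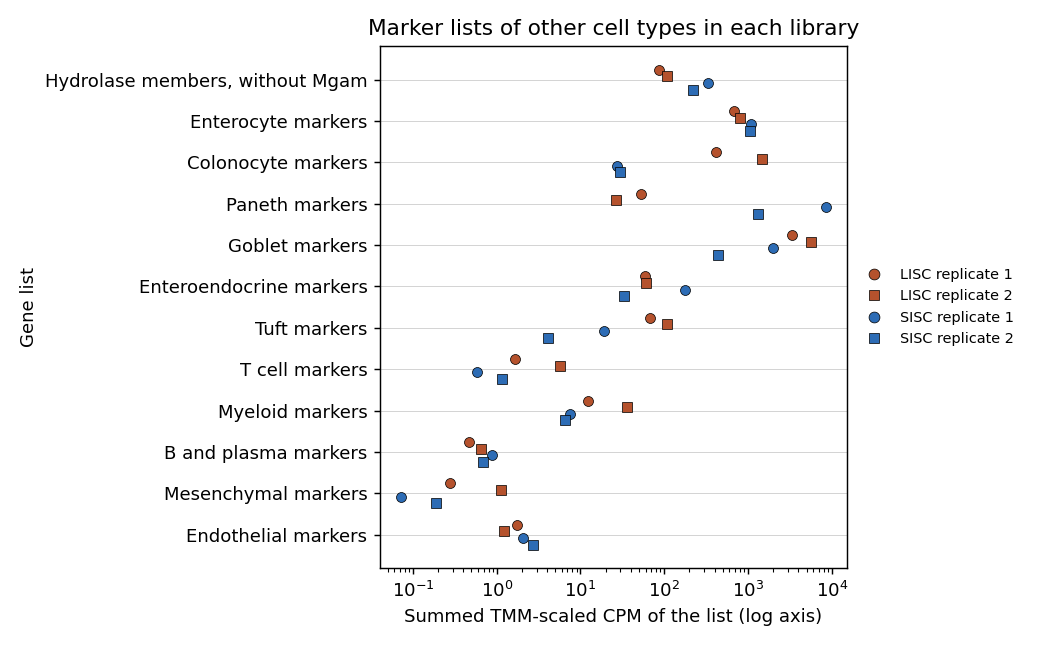
Summed TMM-scaled CPM, on a log axis, of the hydrolase members without Mgam and of marker lists of other cell types, with 1 row per list and 1 symbol per library (circles replicate 1, squares replicate 2). Paneth markers reach 8445 CPM in SISC replicate 1, and the T cell, B cell, mesenchymal and endothelial lists stay at or below 5.74 CPM in every library.

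Blood cell and stromal markers were read because CD13 and CD26 are also surface proteins of blood cells. The T cell, B and plasma cell, mesenchymal and endothelial lists were low, at or below 5.74 CPM in every library. The myeloid sums in LISC, which were mostly C1qa, were not low beside Anpep, at 19.5 and 37.3 CPM there. Csf1r, another myeloid marker, had 1 and 1 counts in LISC and 1 and 0 counts in SISC. The part of myeloid cells in the Anpep level was not tested. T cell markers summed to 1.67 and 5.74 CPM in LISC and 0.582 and 1.16 CPM in SISC, with Ptprc the highest of them in each library and Cd3d at 0 in all 4. Myeloid markers summed to 12.1 and 36.2 CPM in LISC and 7.57 and 6.50 CPM in SISC, with C1qb at 0 in all 4, and C1qa alone passed edgeR, as higher in LISC (7.41 and 32.1 CPM in LISC, 0 and 0.0625 CPM in SISC). Its level carries the higher LISC sum, since Cd68, Itgam and Lyz2, 3 of the 6 myeloid markers, had both LISC libraries below both SISC libraries. B and plasma cell markers stayed at or below 0.873 CPM, mesenchymal markers at or below 1.13 CPM and endothelial markers at or below 2.72 CPM, with Kdr at 0 in all 4. Stem cell markers summed to 563 and 444 CPM in LISC and 8498 and 13402 CPM in SISC, of which Olfm4 made 91.5 and 108 CPM in LISC and 7765 and 12472 CPM in SISC.

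Other enzymes listed with the same membrane differed in sign, and 8 of the 13 tested had a negative log2 difference. Calls in the related lists stand against shares of all genes called higher in LISC of 5.54% with DESeq2, 1.27% with DESeq2's size factors, 1.32% with rRNA genes left out, 3.92% with no filter, 0.563% with the stricter filter, 2.08% with limma on log2(TPM + 1), 1.68% with limma on log2(TPM + 0.1) and 7.17% with a replicate block. Leaving out 1 library, those shares were 1.65% without LISC replicate 1, 1.14% without LISC replicate 2, 2.21% without SISC replicate 1 and 1.26% without SISC replicate 2. Of 18 further genes listed as brush border hydrolases, 13 were tested, and 1 passed as lower in LISC and 0 as higher. By edgeR's unadjusted p below 0.05, 4 were lower in LISC and 3 higher, against 4.67% and 8.73% of all genes tested. Their median log2 difference was −0.57. Mme, which encodes neprilysin, a metallopeptidase, was read at 0.371 and 0.0687 CPM in LISC, which are 4 and 2 counts, and at 18.8 and 32.4 CPM in SISC (log2 −7.21 ± 0.77; edgeR adjusted p = 0.0269). Mep1a, the alpha subunit of the metallopeptidase meprin, had higher values in LISC, at 55.7 and 74.6 CPM against 19.1 and 21.2 CPM in SISC (log2 1.69 ± 0.27), and did not pass edgeR (adjusted p = 0.0627). It passed as higher in LISC with DESeq2 (log2 1.66, adjusted p = 6.1e-05) and with a replicate block in edgeR (log2 1.68, adjusted p = 0.00375). Pla2g2a, a secreted phospholipase also made by Paneth cells and annotated as a polymorphic pseudogene in the mouse, was read at 0.649 and 2.10 CPM in LISC and at 26.6 and 5.03 CPM in SISC (edgeR adjusted p = 0.216). Naaladl1, an aminopeptidase, had 22.6 and 20.2 CPM in LISC and 32.9 and 16.8 CPM in SISC. Folh1 and Tmprss15, the enteropeptidase gene, were at 0 counts in all 4 libraries.

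Relatives of the 8 by protein family, in which Akp3 is listed again, showed no call. Of 23 listed, 13 were tested, and 0 passed edgeR in either direction. By edgeR's unadjusted p below 0.05, 1 was lower in LISC and 1 higher, against 4.67% and 8.73% of all genes tested. DESeq2 also called 0, and the median log2 difference of the relatives was 0.01. The most abundant were Rnpep, a cytosolic aminopeptidase (log2 −0.45 ± 0.28), Ganab, a glucosidase of the endoplasmic reticulum (0.01 ± 0.32), and 2010111I01Rik, the gene now called Aopep (0.44 ± 0.33).

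Structural genes of the microvillus, which carry the enzymes' membrane, gave 0 calls among 19 tested of 22, and a median log2 difference of 0.16. By edgeR's unadjusted p below 0.05, 1 was lower in LISC and 1 higher, against 4.67% and 8.73% of all genes tested. DESeq2 called 1 as higher in LISC. Vil1, which encodes the actin bundler villin, was read at 326 and 336 CPM in LISC and at 350 and 310 CPM in SISC. Its log2 difference was 0.00 ± 0.32. Myo1a and Calml4, a myosin of the brush border and a light chain of its adhesion complex, had log2 differences of 0.13 ± 0.31 and −0.10 ± 0.68, and neither passed edgeR. The signs of Vil1, Myo1a, Calml4 and Ganab changed between settings.

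Transporters that take up the sugars and amino acids released by these enzymes gave 2 calls among 10 tested of 12, both lower in LISC, as were 0.741% of all genes tested, and a median log2 difference of −0.84. Slc7a9, the light chain of the cystine and dibasic amino acid transporter, was read at 0.185 and 0.447 CPM in LISC and at 6.48 and 6.81 CPM in SISC (log2 −4.27 ± 0.63, edgeR adjusted p = 0.0494). Slc7a9 did not reach the filter's level in both LISC libraries, so it was tested because of SISC, where it was higher. Slc1a1, a glutamate and aspartate transporter, was read at 10.1 and 10.2 CPM in LISC and at 35.6 and 35.3 CPM in SISC (log2 −1.81 ± 0.23, edgeR adjusted p = 0.0403). Both calls were lost without LISC replicate 1, without LISC replicate 2 and without SISC replicate 2, when no transporter of the list passed edgeR. The log2 differences were then −1.80, −1.80 and −1.83 for Slc1a1 and −3.88, −5.10 and −4.27 for Slc7a9, in that order. Slc5a1, the sodium-coupled glucose transporter that takes up the product of Sis and Mgam, had 106 and 116 CPM in LISC and 93.3 and 130 CPM in SISC. Its log2 difference of −0.01 ± 0.30 changed sign between settings. Slc3a2 and Slc7a7, partners in a basolateral amino acid exchanger, had log2 differences of −0.80 ± 0.27 and −0.28 ± 0.23 and did not pass edgeR.

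**Figure D5:**
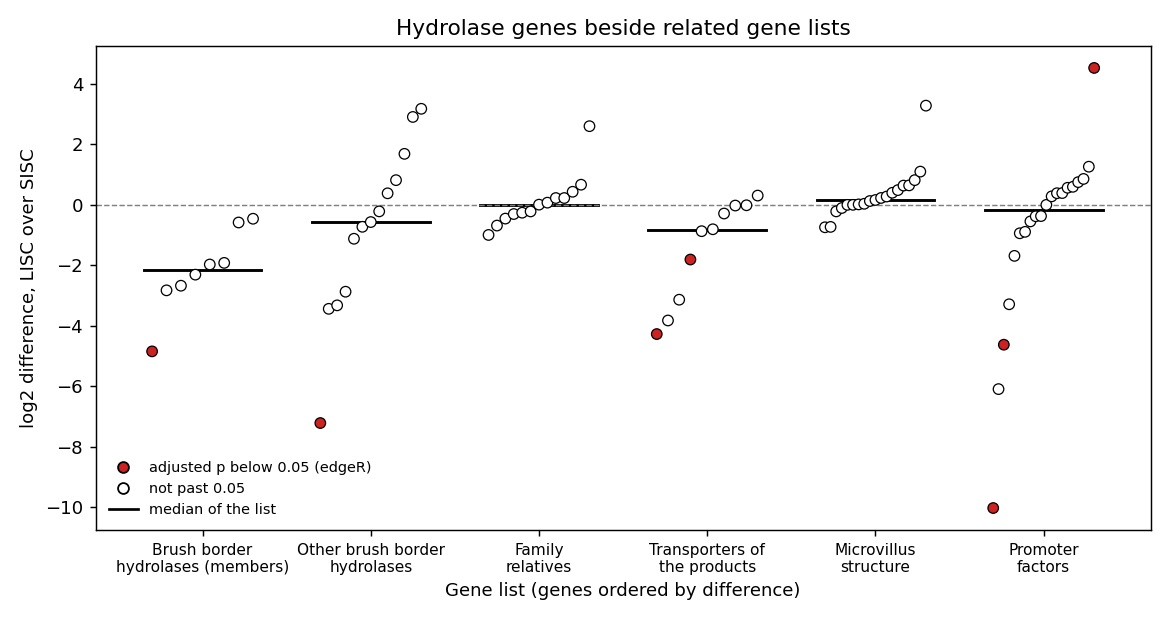
Log2 difference of LISC over SISC for each tested gene of the hydrolases and of 5 related lists, 1 point per gene in ascending order, filled where edgeR's adjusted p was below 0.05, with a bar at each list's median. The hydrolase median lies at −2.14 and the medians of the other lists between −0.84 and 0.16. Lct, Treh and Alpi, tested because of SISC, are in that hydrolase median. The members and lists were chosen with earlier results of these data known, so the medians describe them and are no test.

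The genes whose profiles were nearest to each member were found by the Euclidean distance between centred log2 CPM values over the 4 libraries, with a prior count of 2, which describes these libraries only. Nearest to Anpep were Trim15, Irx3 and Slc28a3, and Slc28a3, a nucleoside transporter gene, was also nearest to Enpep (distance 0.185), ahead of Vps37d and Spry3. Nearest to Sis were Adcy1 (distance 0.370), Cybrd1, a duodenal iron reductase gene, and Gm29797 (distance 0.594), each with 0 counts in both LISC libraries. The prior count of 2 draws profiles together near 0 counts. By edgeR, Adcy1, Cybrd1 and Gm29797 had log2 differences of −8.97, −8.81 and −8.18, against −4.84 for Sis. Nearest to Alpi were Rhoj (distance 0.507), Pla2g2a and Maff (distance 0.704). Nearest to Mgam were Ep300, Tet1 and Tjp1, which like Mgam were highest in SISC replicate 1. Nearest to Dpp4 was Prdx4 (distance 0.0182), then Picalm and Aprt, nearest to Lct were Gem, Papln and 1810028F09Rik, and nearest to Treh were Fhl2, Soat1 and Nab2. None of these genes passed edgeR's test at an adjusted p below 0.05.

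The nearest protein-coding genes on the chromosome were read as well, and the alkaline phosphatase genes beside Alpi are given above. Mcm6, 3272 bases from Lct and a subunit of the replicative helicase, had a log2 difference of −0.12 and Ubxn4, on the other side, 0.00. Mesp2, beside Anpep, had 0.463 and 0.206 CPM in LISC and 0.946 and 0.718 CPM in SISC (log2 −1.36, edgeR adjusted p = 0.705). The neighbours of Sis (Otol1 and Slitrk3) and of Mgam (Tas2r138 and Moxd2) had 0 counts in every library, while Sis and Mgam were read. Phldb1, on the other strand, overlaps the end of Treh by 2 bases, and whether the counting used strand is not stated.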

How the data were processed

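Poly(A) RNA was made into strand-marking libraries, per the labels' protocols, and 4 libraries were used, 2 LISC and 2 SISC, grouped and numbered by their titles. The submitters' processing notes list STAR 2.7.2b, RSEM 1.2.31 and GRCm38 (mm10), with no role or order. Neither the annotation release nor the strand setting of the counting is stated there. The authors deposited RSEM expected counts per gene, which were rounded to whole numbers here (7.25% of genes were off a whole number, by over 0.001, in some library). The authors deposited TPM scaled by effective length, used as it stands, with ribosomal RNA genes included. The deposited gene lengths, in bases, and posterior SDs, in reads, were used as given.

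Identifiers were matched to symbols in GENCODE vM21, whose coordinates are given: 55227 of 55487 matched. In the files 1325 transcripts are not in vM21. LISC was set over SISC with the quasi-likelihood test of edgeR 4.0.16 under R 4.3.3 (group as the only term, TMM, filterByExpr with a minimum count of 10) and Benjamini-Hochberg adjustment over 14165 genes. Of the called genes outside the members, Mme, Gata4, Slc7a9, Apoa4 and Gip did not reach the filter's level in both LISC libraries. They were tested because of SISC, where they were higher, and C1qa because of LISC. The counts of calls in their lists include them. SEs are the log2 difference over the square root of F. Limma 3.58.1, DESeq2 1.42.0, other filters, a block on replicate number and leaving out each library were the alternatives.

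The 8 members, the 5 lists of related genes and the markers were chosen with earlier results of these data known. Named genes were the members, in each list up to 4 called genes with a mean TPM of at least 1 and up to 3 of the most abundant others, the 3 nearest profiles per member and the nearest protein-coding genes. Apoa4, Cd3d, C1qa, C1qb, Csf1r, Gip, Mesp2, Kdr, Ptprc, Olfm4, Folh1, Tmprss15, Mgam2-ps, Alppl2 and Akp3 were singled out after their values were seen. Some genes that this rule names are not reported here.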

Additional observations from a re-analysis of the deposited data

How the results depend on the processing

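Of 12 alternatives, all kept Mgam, Anpep and Dpp4, 11 kept Sis, Enpep and Alpi, and 9 kept Lct and Treh. None that kept a hydrolase gene reversed it, except that Mgam was 0.19 without SISC replicate 1 (range −1.10 to 0.19 when leaving out 1 library). Sis passed in all 11 that kept it and dropped below the filter that asked for a CPM of 1 in all libraries, which left 0 members called. The number of members called was 1 in the edgeR fit and 4 with DESeq2, where Anpep (log2 −2.35), Enpep (−2.01) and Alpi (−2.91) passed. It was also 4 with no filter on low counts, where Anpep (−2.30), Enpep (−1.97) and Alpi (−2.81) passed. The replicate numbers are shared by label only, with a correlation of 0.648 between deviations of same-numbered libraries. With a replicate block 3 members passed, Lct (−2.78, adjusted p = 0.0498) and Anpep (−2.26, adjusted p = 0.0395) in addition to Sis. The block called 1015 genes higher and 524 lower in LISC among all genes, and lower and higher, in that order, 2 and 1 of the other hydrolases, 1 and 0 relatives, 2 and 2 microvillus genes, 4 and 0 transporters and 5 and 3 promoter factors.

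Over all genes, edgeR called 206 higher and 105 lower in LISC, DESeq2 785 and 398, no filter 942 and 465, the stricter filter 63 and 31, and leaving out 1 library 166 to 338 and 79 to 149, the 338 without SISC replicate 1. In the related lists DESeq2 called 3 other hydrolases lower and 1 higher, 1 microvillus gene higher, and 4 promoter factors lower and 2 higher. No filter called 5 and 2 other hydrolases, 1 relative lower, 1 microvillus gene higher, and 4 and 2 promoter factors. The stricter filter called 0 other hydrolases, 0 transporters and, of the promoter factors, 1 lower and 0 higher. Limma-trend on log2(TPM + 1) and on log2(TPM + 0.1) each called 2 other hydrolases lower and 1 microvillus gene higher, and log2(TPM + 0.1) 1 transporter. DESeq2's size factors gave 1 transporter and 0 promoter factors higher. Leaving out 1 library gave 1 to 2 other hydrolases lower, 0 to 1 higher, 0 to 1 microvillus genes higher and 0 to 3 transporters lower.

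Genes near 0 changed sign. With DESeq2's size factors, DESeq2, log2(TPM + 1), log2(TPM + 0.1) and rRNA genes left out, in that order, Vil1 was −0.0251, −0.0251, −0.0245, −0.0253, −0.0191 and Ganab −0.0153, −0.0154, −0.0207, −0.0212, −0.0093. With no filter Vil1 was −0.00364 and Ganab −5.28e-05. Myo1a was −0.00912 and −0.0109 on the TPM scales. Slc5a1 was 0.0139 with the stricter filter and 0.00569 with the replicate block, and Calml4 0.0595 with the block. Leaving out 1 library gave −0.103 to 0.0859 for Vil1, −0.179 to 0.189 for Ganab, −0.0188 to 0.256 for Myo1a, −0.238 to 0.225 for Slc5a1, −0.738 to 1.01 for Calml4 and −0.641 to 0.337 for Naaladl1. Where 1 library was left out, the lone library of its group was assumed to vary like the other group. The cause of these changes was not tested. Depth limits Sis, Lct, Treh and Alpi in LISC, where they had 4 to 37 counts a library.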
